A study of Mus musculus with 8 samples.

Results

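The endothelial cells of subcutaneous MB49 mouse tumors were examined here, 73 of the 29496 cells in 8 single-cell RNA libraries. They were chosen by measured values: a cell was kept when at least 3 of the 8 endothelial genes Pecam1, Cdh5, Kdr, Flt1, Cldn5, Emcn, Egfl7 and Ptprb had a value above 0 and Ptprc, C1qa and Krt18, which mark leukocytes, macrophages and the epithelial tumor cells, were at 0. Libraries 1 to 8 gave 0, 5, 24, 18, 12, 10, 1 and 3 of these cells. MB49 is a urothelial cancer line of mouse. It was injected under the skin of both flanks of C57BL/6 hosts, at 2 tumors per mouse, and the tumors were collected 3 weeks later. Libraries 1, 2, 5 and 6 came from UbcreERT2/+;Atg7+/+ hosts, called wild type here, and libraries 3, 4, 7 and 8 from UbcreERT2/+;Atg7f/f hosts, called deleted. Both groups therefore carried the ubiquitous tamoxifen-inducible Cre, and per the labels' protocols mice received tamoxifen on 4 days, 1 week before the tumor cells. The tumor cells were not of host origin, whereas blood vessels in such grafts grow from the host. The labels give no age and do not tie a tumor to a mouse, so 2 tumors of a mouse may be among the libraries. The p-values measure the spread between these libraries, which may in part be technical, and may be too small. The tissue was dissociated and the cells were enriched on a density gradient meant for blood mononuclear cells. This step may affect how many vessel cells reach a library, which was not measured.

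Endothelial cells line blood and lymph vessels. Cdh5 (VE-cadherin), Cldn5 and Esam hold neighboring cells together, the receptor tyrosine kinases Kdr, Flt1 and Tie1 carry signals of the VEGF and angiopoietin families, and ETS, SOX and GATA transcription factors keep the program of the lineage active. Arteries, veins, capillaries, lymph vessels and growing sprouts use partly different genes. In tumors, vessels commonly carry a fenestral protein, Plvap, and matrix of the vascular basement membrane, and they are the surface on which leukocytes leave the blood.

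The 8 chosen genes were present in the cells with 3 to 8 at a time, and in 14 cells all 8 were found. The cells held between 654 and 27041 UMIs, with a median of 4588, and 555923 UMIs in all. Among the marker genes given for this cell type, Cdh5 stood at 9.17 UMIs per 10000 UMIs of the pooled cells, Pecam1 at 6.85, Kdr at 4.89, Ptprb at 5.70 and Cldn5 at 8.27. These values follow from the choice of cells. Fabp4, a fatty acid carrier of capillary endothelium and adipocytes, did not enter the choice, and stood at 45.6 UMIs per 10000 in the endothelial cells against 0.168 in all other cells. It was found in 63 of the 73 cells. At the edge of the rule, the 6 cells with exactly 3 of the genes held 1.76 Fabp4 and 240.5 Col3a1 UMIs per 10000, and the 40 cells that just missed it, with 2 genes, held 1.84 and 160.6. The 67 cells with 4 or more genes held 49.5 and 2.37. Of the 6 cells with 3 genes, 3 held any Col3a1 UMI, and these pooled values weight the deepest cells most.

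Genes of other cell types were counted in the 73 cells from whole marker lists. The 8 T cell markers summed to 0.863 UMIs per 10000 (from 0 to 1.89 over the 7 libraries with endothelial cells), and the 8 epithelial markers of the tumor cells to 0.162 (0 to 0.393), with 4 of the 8 at 0. The 10 macrophage markers summed to 8.42 (0.617 to 15.4), against 179.6 in macrophages, and 34 of the 73 cells had at least 2 of them. The 11 pericyte and smooth muscle markers summed to 5.97 (0.510 to 19.1), and Rgs5, a pericyte marker, was found in 10 cells. The 10 fibroblast markers summed to 67.4 (0 to 107), against 524 in fibroblasts. Of the 73 cells, 15 also carried at least 3 of 8 fibroblast genes (Col1a2, Col3a1, Dcn, Dpt, Lum, Pdgfra, Pdgfrb, Serpinf1), and 12 of these 15 were in library 3. They had a median of 14641 UMIs against 3249 in the other 58. These 15 are called the cells with fibroblast genes below. The other 58 held up to 2 of the 8 genes. No doublet caller was run, and whether the 15 are pairs of cells was not tested. Another 45 cells had at least 3 of the endothelial genes together with a UMI of Ptprc (31 cells), C1qa (24) or Krt18 (10), and were left out by the rule.

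Libraries 1 to 4 and libraries 5 to 8 differed beyond their groups. Between 0 and 5 cell barcodes were shared by any pair within the first set, 7 to 46 within the second and at most 1 across the sets, and no barcode of an endothelial cell occurred in another library. In the endothelial cells, the locus Gm10076 stood between 0 and 0.0625 UMIs per 10000 in libraries 2 to 4 and between 53.4 and 190 in libraries 5 to 8. The mitochondrial gene mt-Atp8 stood between 3.68 and 4.52 against 65.0 to 112. The labels name no batch. The libraries held from 4371773 to 59235799 UMIs.

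Promoters of genes that marked the cells are shown because ETS factors, among the factors that were higher in these cells (below), bind a GGAA core. From RefSeq promoters on GRCm38.p6, 250 bases before to 50 after the start, the 4 with the largest difference from fibroblasts among pan-endothelial genes with a single promoter in the table are printed 5′ to 3′ on the gene's strand. Capitals mark AGGAAG or its reverse complement CTTCCT. Rasip1, a Ras-interacting protein of vessel lumens, lies on the plus strand at chr7:45627287-45627586, Tm4sf1, a membrane protein of sprouting endothelium, on the minus strand at chr3:57301939-57302238, Eng (endoglin, a TGF-beta co-receptor) on the plus strand at chr2:32646345-32646644, and Mcam (CD146) on the plus strand at chr9:44134408-44134707.
Rasip1: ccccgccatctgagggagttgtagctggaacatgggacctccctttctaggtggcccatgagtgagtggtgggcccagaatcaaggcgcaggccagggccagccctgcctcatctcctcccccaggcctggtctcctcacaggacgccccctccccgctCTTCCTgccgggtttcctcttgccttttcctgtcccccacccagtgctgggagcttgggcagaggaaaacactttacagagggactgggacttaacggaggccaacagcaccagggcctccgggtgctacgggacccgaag
Tm4sf1: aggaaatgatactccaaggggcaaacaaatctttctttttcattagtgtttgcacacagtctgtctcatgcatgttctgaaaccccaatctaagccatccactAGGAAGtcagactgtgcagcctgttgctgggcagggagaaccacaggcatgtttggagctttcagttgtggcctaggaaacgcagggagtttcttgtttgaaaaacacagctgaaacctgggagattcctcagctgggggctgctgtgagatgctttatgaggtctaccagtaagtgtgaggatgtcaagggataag
Eng: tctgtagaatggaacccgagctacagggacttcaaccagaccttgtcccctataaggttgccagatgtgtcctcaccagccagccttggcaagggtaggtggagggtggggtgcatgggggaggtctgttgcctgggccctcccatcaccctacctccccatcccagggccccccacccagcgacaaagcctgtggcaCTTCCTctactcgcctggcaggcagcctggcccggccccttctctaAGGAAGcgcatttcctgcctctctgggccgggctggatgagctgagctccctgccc
Mcam: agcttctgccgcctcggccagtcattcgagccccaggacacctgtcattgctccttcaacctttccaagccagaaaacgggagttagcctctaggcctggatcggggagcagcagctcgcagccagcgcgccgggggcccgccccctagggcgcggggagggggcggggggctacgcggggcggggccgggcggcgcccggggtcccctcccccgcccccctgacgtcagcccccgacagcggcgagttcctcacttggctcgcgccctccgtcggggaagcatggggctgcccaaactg
Rasip1 and Tm4sf1 held 1 match each, Eng 2 and Mcam none. The core GGAA, or TTCC for the other strand, also occurs outside these matches, in Mcam too, and is not marked. Of the 21 pan-endothelial genes that were higher than in fibroblasts, 11 had a promoter in the table and 8 of these 11 held at least 1 match on either strand. Among all 32851 promoters of the same length, 35.4% did. A match is a run of letters, and says nothing of binding.

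The share of endothelial cells did not separate the hosts. It was 0%, 0.159%, 0.198% and 0.178% of all cells in wild-type libraries 1, 2, 5 and 6, and 0.608%, 0.733%, 0.104% and 0.0600% in deleted libraries 3, 4, 7 and 8. Deleted libraries 3 and 4 were the highest of all and deleted libraries 7 and 8 were below wild-type libraries 2, 5 and 6, so the groups overlap. For library 1, the 0 of 2295 cells allows a share of up to 0.131%. The means were 0.376% ± 0.344 (SD, n = 4) in deleted hosts and 0.134% ± 0.0905 (SD, n = 4) in wild-type hosts (two-sided exact permutation test, p = 0.343, where the smallest p possible is 0.0286). Within libraries 1 to 4 the deleted mean was higher by 0.591 percentage points, and within libraries 5 to 8 it differed by -0.106. Each of these holds 2 libraries per genotype. Without the 15 cells with fibroblast genes the difference fell from 0.243 to 0.135 percentage points (exact permutation p = 0.514). Requiring Cd3e, Lyz2, Krt8, Epcam and Col3a1 to be at 0 as well turned the direction, to -0.0573 percentage points (exact permutation p = 0.314). Dissociation, fewer vessels and less RNA per cell cannot be told apart in such shares.

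**Figure D1:**
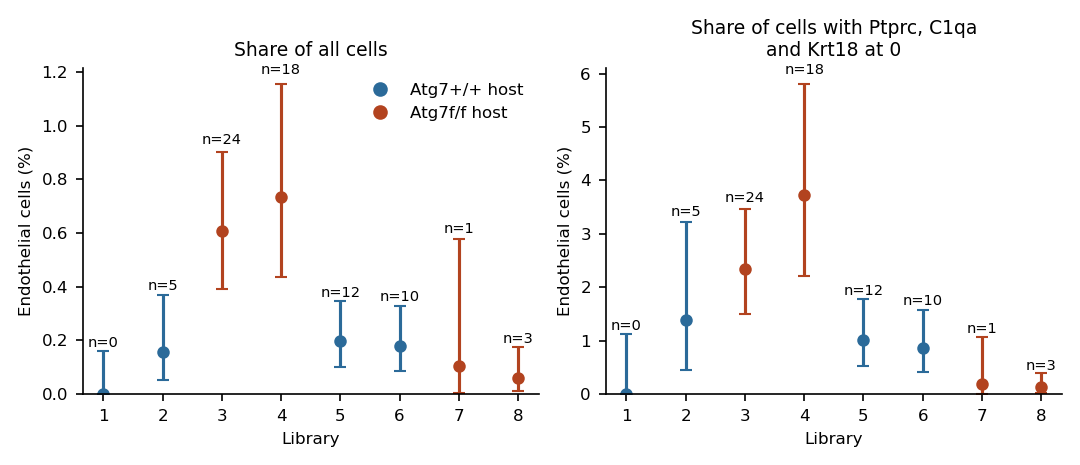
Share of endothelial cells in each of the 8 libraries (vertical axis, percent), of all cells (left) and of cells with Ptprc, C1qa and Krt18 at 0 (right). Points are libraries, bars are exact 95% binomial intervals that cover counting error only, and n is the number of endothelial cells. Libraries 3 and 4 stand highest in both panels, and libraries 7 and 8, from hosts of the same genotype, are the lowest of those with endothelial cells.

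Relative to every other cell of the tumors, the endothelial cells stood out by genes that had no part in choosing them. The 15 leaders among genes found in at least 30% of the 73 cells were Fabp4, Esam, Gpihbp1, Mcam, Ubd, Mmrn2, Tie1, Tmem252, Rasip1, Adgrl4, Tspan7, Cd300lg, Vwa1, Gng11 and Sparcl1. Esam, an adhesion molecule of tight junctions, stood at 6.64 UMIs per 10000 (95% counting interval 5.98 to 7.35) against 0.0175 in all other cells. Gpihbp1, which holds lipoprotein lipase on the capillary wall, stood at 5.65 against 0.00920. Mmrn2, a matrix partner of Cd93, stood at 3.54 against 0.00840. Ubd, a ubiquitin-like modifier induced by inflammatory cytokines, stood at 9.43 against 0.0945. When every cell was thinned to 1000 UMIs, Esam was found in 54.5% of 66 endothelial cells, 0.143% of 1403 fibroblasts and 0.0526% of 9510 malignant cells. The 7 endothelial cells under that depth were left out, and the median depth before thinning was 4588 UMIs in endothelial, 5259 in fibroblast and 13203 in malignant cells. Because the cells were chosen by linked genes, these levels are a description and carry no test.

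**Figure D2:**
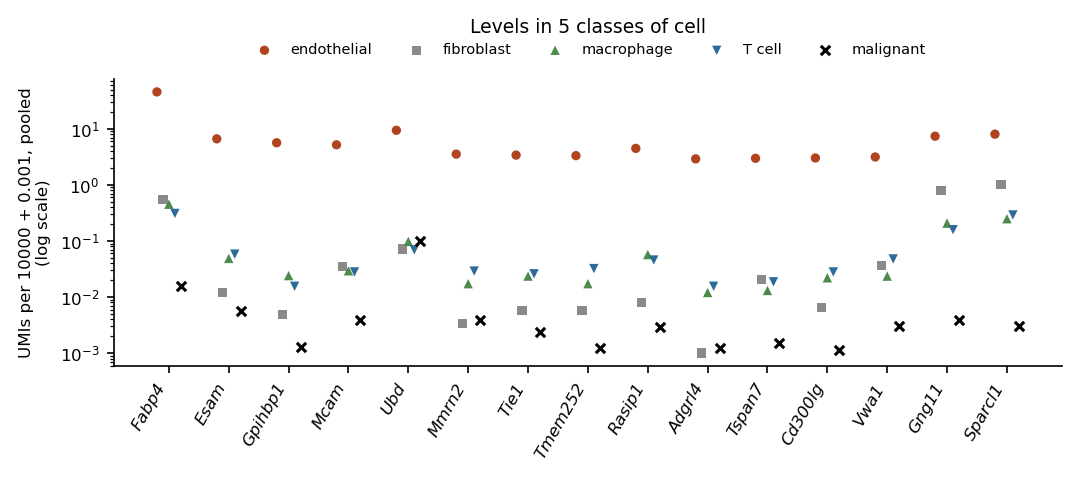
Pooled levels (UMIs per 10000 plus 0.001, log scale) of the 15 genes highest in endothelial cells relative to all other cells, in endothelial, fibroblast, macrophage, T and malignant cells. Each point is 1 gene in 1 class, summed over its cells. Every endothelial point lies above the points of the other 4 classes, and Gng11 and Sparcl1 have the closest fibroblast values.

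Fibroblasts, the other host stromal cells, gave the comparison that could be replicated across libraries. They were cells with at least 3 of the 8 fibroblast genes, fewer than 3 endothelial genes and the same 3 genes at 0, 1610 cells in all. Libraries 2 to 6 held at least 5 cells of each class. The value compared is the mean over cells of log2(UMIs per 10000 + 1), and the 19 genes used in either choice were not tested. Of 8226 genes found in at least 10% of the cells of either class, 509 were higher in endothelial cells (6.19%) and 547 were lower (6.65%) at an adjusted p under 0.05 by limma within libraries, with Benjamini-Hochberg adjustment over all 8226. The median difference of all tested genes was 0.03. These 2 shares of all genes are the background for each list count below. Both classes were gated on expressed genes, so genes that move with those in the gate had to differ too, and the counts of lineage lists below describe the cells more than they test them. The 10% filter could be met in 1 class alone. Genes near 0 in fibroblasts thus entered the test through their endothelial level, and their calls are descriptive too. Without the 15 cells with fibroblast genes, 460 genes were higher and 654 lower. Without library 5, 328 were higher and 362 lower, and without library 3, 358 were lower.

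Endothelial adhesion, surface and receptor genes were higher in most members. Of 24 pan-endothelial genes, all passed the expression filter, 21 were higher and none lower, with a median difference of 1.35 against 0.03 for all genes. Esam (chromosome 9, 37528078 to 37538319, mm10) stood at 7.67, 9.18, 5.56, 4.96 and 7.19 UMIs per 10000 in the endothelial cells of libraries 2 to 6. In fibroblasts of the same libraries it stood at 0, 0.00414, 0.0219, 0.0425 and 0. The endothelial values are all above the fibroblast values, a difference of 2.74 ± 0.21 (SE, limma adjusted p = 3.14e-06). Cd93, a C-type lectin receptor of endothelium, stood at 8.36 ± 2.86 (SD, n = 5 libraries) against 0.171 ± 0.314, and S1pr1, the receptor for the barrier lipid sphingosine-1-phosphate, at 4.61 ± 1.52 against 0.0556 ± 0.0573. Tie1 stood at 3.74 ± 1.07 against 0.0140 ± 0.0290. Esam and Tie1 are near 0 in fibroblasts and entered the test through their endothelial level. The p-value of Esam is thus descriptive. The 3 genes that did not pass were Cd34 (6.36 ± 0.501 against 4.32 ± 2.98), Clec14a and Arhgap29. Cd34 is known on both cell types.

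**Figure D3:**
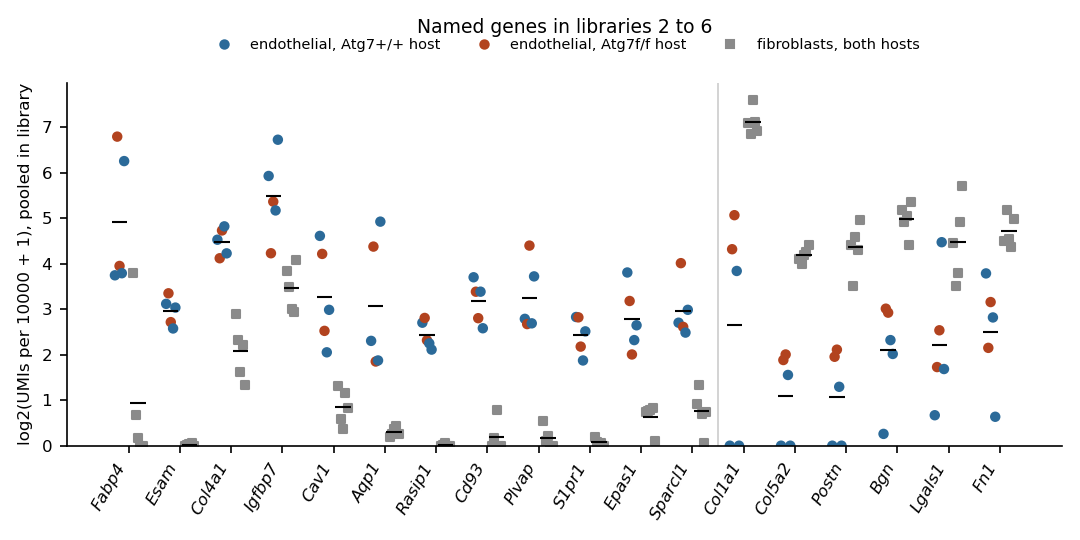
Levels of 18 named genes in libraries 2 to 6, as log2(UMIs per 10000 + 1) of the UMIs pooled in each library. Circles are endothelial cells, colored by host genotype, squares are fibroblasts, and black lines are means of 5 libraries. The 12 genes on the left are higher in endothelial cells, and the 6 on the right are lower. The pooled levels overlap for Fabp4 and Lgals1 only, and those of the other 16 genes do not.

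Transcription factors of the lineage moved with them. Of 22 listed, 20 were tested, 15 were higher and none lower. Among the ETS family, Ets1 stood at 3.58 ± 0.865 against 0.391 ± 0.302 UMIs per 10000 (difference 1.34), Fli1 at 1.03 ± 0.562 against 0.0998 ± 0.0878 and Erg at 0.244 ± 0.194 against 0.000276 ± 0.000617. Sox17 and Sox18 were found in endothelial cells, at 1.05 ± 0.364 and 0.659 ± 0.295, and at 0 in fibroblasts of all 5 libraries. Erg, Sox17 and Sox18 entered the test through their endothelial level. Epas1 (HIF-2 alpha) stood at 13.0, 8.06, 3.01, 3.99 and 5.26 in libraries 2 to 6 against 0.669, 0.694, 0.722, 0.765 and 0.0725 in fibroblasts, with no overlap. The flow-responsive factors Klf2 (5.37 ± 3.63 against 3.23 ± 1.97) and Klf4 (7.05 ± 4.08 against 8.31 ± 5.03) did not pass. Foxf1, a factor of lung and gut vessels, had no UMI in the 73 cells.

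Genes of lipid handling and of caveolae, the membrane pits dense in capillaries, were higher in 10 of 15 tested members and lower in none, with a median difference of 1.49. Fabp4 (chromosome 3, 10204088 to 10208576) stood at 12.4, 109.7, 14.4, 12.8 and 75.2 UMIs per 10000 in endothelial cells of libraries 2 to 6, and at 12.8, 0.599, 0.131, 0 and 0 in fibroblasts. Library 2, with 15 fibroblasts, is the one where the pooled levels meet. On the mean log2 scale the groups did not overlap, and the difference of 4.26 ± 0.44 (SE, limma adjusted p = 1.38e-05) was the largest positive one among the named genes. Cav1, the coat protein of caveolae, stood at 11.2 ± 8.86 against 0.856 ± 0.499, and Cavin2 at 4.07 ± 3.57 against 0.213 ± 0.116. Plvap, which forms the diaphragms of fenestrae, stood at 9.79 ± 6.41 against 0.133 ± 0.186. Cd36, a fatty acid receptor, was far from even across libraries, at 1.18, 34.2, 1.28, 1.09 and 8.58 in libraries 2 to 6. Library 3 and, less so, library 6 were high for both Fabp4 and Cd36. Pooled without the 15 cells with fibroblast genes, Fabp4 stood at 30.5 and Cd36 at 5.08, against 45.6 and 11.3 with them. Lpl, the lipase that Gpihbp1 binds, was not higher in endothelial cells (2.57 ± 4.08 against 4.80 ± 3.86, adjusted p = 0.331 by limma).

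**Figure D4:**
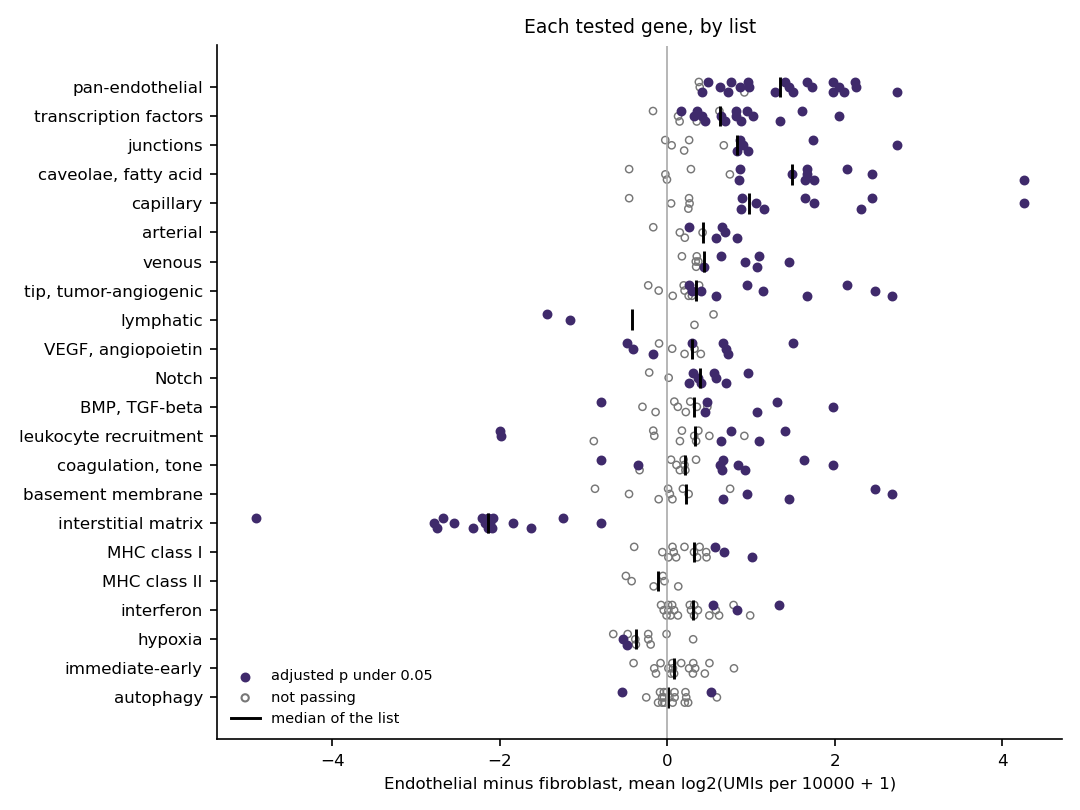
Difference between endothelial cells and fibroblasts (horizontal axis, mean log2(UMIs per 10000 + 1), libraries 2 to 6) of each tested gene in 22 lists. Filled points have an adjusted p under 0.05, open points do not, and black bars are list medians. Pan-endothelial genes lie to the right, all 17 interstitial matrix genes to the left, and the immediate-early and autophagy lists around 0.

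Matrix genes divided by kind. Of all tested genes, 6.19% were called higher and 6.65% lower. Of 14 basement membrane genes, 5 were higher (Col4a1, Col4a2, Col18a1, Hspg2, Lama5), none was lower and the median difference was 0.22. Without the cells with fibroblast genes 4 were higher and 1 lower, as without library 4. Col4a1 (chromosome 8, 11198423 to 11312826) stood at 22.03, 16.4, 25.5, 27.2 and 17.7 UMIs per 10000 in endothelial cells of libraries 2 to 6 and at 6.47, 4.04, 2.08, 3.66 and 1.52 in fibroblasts, without overlap. Its chain partner Col4a2, transcribed from the neighboring gene, stood at 17.2 ± 4.21 against 2.16 ± 1.15. Sparc, a matrix-binding glycoprotein, was abundant in both classes, at 45.6 ± 8.22 and 94.98 ± 13.7 (difference -0.86, adjusted p = 0.0613 by limma). All 17 interstitial matrix genes were tested and all 17 were lower, with a median of -2.14. Col1a1, a chain of type I collagen, stood at 0, 18.9, 32.5, 13.3 and 0 in endothelial cells of libraries 2 to 6 against 135, 115, 192, 137 and 119 in fibroblasts (difference -4.91 ± 0.43 SE, limma adjusted p = 5.83e-06). Nearly all of its endothelial UMIs were in the 15 cells with fibroblast genes: without them its pooled level was 0.762, against 51.03 in those 15 cells. Postn (periostin), Col5a1, Col5a2, Bgn and Fn1 were lower too. Fibroblast genes were used to gate the comparison cells, so the direction of this list is in part set by the choice.

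Signaling genes moved in both directions, and the lists below stand beside 6.19% of all tested genes called higher and 6.65% lower. In the VEGF and angiopoietin list, 13 genes were tested. The receptors and co-receptors Tie1, Tek, Nrp1 and Plxnd1 and the ligand Angpt2 were higher, and the ligands Vegfa, Vegfb and Vegfd were lower. The 3 lower calls became 1 without library 3, 4, 5 or 6, and the 5 higher calls became 3 without library 3 or 5. Vegfa stood at 0.242 ± 0.168 UMIs per 10000 in endothelial cells against 0.979 ± 0.394 in fibroblasts, and at 3.50 in pooled macrophages. Of 10 tested Notch pathway genes, 8 were higher and none lower. The receptors Notch1 (1.99 ± 0.805 against 0.211 ± 0.0896) and Notch4 (1.52 ± 0.748 against 0.0108 ± 0.0211), the tip cell ligand Dll4 (1.14 ± 0.894 against 0.00493 ± 0.00956) and the target Nrarp (0.593 ± 0.245 against 0.00138 ± 0.00309) were among them. Notch2 (0.0678 ± 0.120 against 0.363 ± 0.0837) and Jag1 did not pass. Without library 6 the list held 5 higher and 1 lower gene. Notch4, Dll4 and Nrarp are near 0 in fibroblasts and entered the test through their endothelial level. Of 14 tested genes of BMP and TGF-beta signaling, 5 were higher, including Eng (5.79 ± 2.30 against 0.210 ± 0.121) and the BMP targets Id1 (3.23 ± 1.79 against 0.162 ± 0.108) and Id3. Tgfbr2, the TGF-beta type II receptor, was lower (1.30 ± 0.443 against 3.95 ± 0.967). The 5 higher calls became 3 without library 5 or 6, and also without the cells with fibroblast genes.

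In blood contact and vessel tone, 7 of 17 tested genes were higher and 2 lower, where 6.19% and 6.65% of all tested genes were. Higher were Vwf, the platelet-binding factor stored in endothelium (2.12 ± 1.41 against 0.000552 ± 0.00123 UMIs per 10000), Nos3, the endothelial nitric oxide synthase (1.12 ± 0.458 against 0.000552 ± 0.00123), Edn1, the constrictor peptide endothelin (2.64 ± 1.44 against 0.135 ± 0.0788), its processing enzyme Ece1, the ectonucleotidase Entpd1, and Calcrl and Ramp2, which form a receptor for adrenomedullin. Vwf and Nos3 are near 0 in fibroblasts and entered the test through their endothelial level. Lower were Plat, the plasminogen activator, and the prostacyclin synthase Ptgis, of which 1 was left without library 3, 5 or 6. The anticoagulant receptors Thbd (1.12 ± 0.212 against 0.541 ± 0.434) and Procr did not pass. Of 11 tested junction genes, 6 were higher, led by Esam and F11r (3.83 ± 1.07 against 0.117 ± 0.0940). Among the leading genes on none of these lists, Igfbp7, a secreted protein of vessel matrix, stood at 59.8, 17.7, 40.1, 34.96 and 104.6 in endothelial cells of libraries 2 to 6 against 10.6 ± 4.02 (SD, n = 5) in fibroblasts. Ctla2a, a cysteine protease inhibitor, stood at 10.4 ± 6.92 against 0.402 ± 0.413, and the adhesion receptor Adgrf5 at 5.96 ± 3.83 against 0.0181 ± 0.0287. Of the 10 genes with the lowest differences, 4 were outside the matrix list, namely Lgals1 (galectin-1, 6.22 ± 8.49 against 24.9 ± 16.4), the metallothionein Mt1 (3.73 ± 2.75 against 27.6 ± 6.91), the complement inhibitor Serping1 and the glutathione peroxidase Gpx3. Aqp1, the water channel, stood at 3.93, 19.7, 2.60, 2.66 and 29.3 in endothelial cells of libraries 2 to 6, and below 0.4 in fibroblasts of each.

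Genes of leukocyte recruitment did not move as a group. Of 16 tested, Icam1, Icam2, Podxl and Selp were higher, and the monocyte chemokines Ccl2 and Ccl7 were lower. Icam1, the ligand of leukocyte integrins, was even across libraries 2 to 6, at 4.52, 3.50, 3.47, 3.99 and 4.15 UMIs per 10000 against 0.223, 1.27, 0.832, 0.595 and 0.508 in fibroblasts. Vcam1 did not pass (2.24 ± 1.401 against 1.23 ± 0.501). Ccl2 stood at 3.76 ± 4.81 in endothelial cells against 13.9 ± 6.01 in fibroblasts. The T cell attracting chemokines Cxcl9 and Cxcl10 were found at 6.33 ± 6.18 and 4.47 ± 2.15 in endothelial cells against 4.64 ± 3.59 and 4.24 ± 2.32, with adjusted p of 0.238 and 0.399 by limma. Of 22 interferon-induced genes, 3 were higher (Gbp4, Gbp7 and Ly6c1), none lower, and the median difference was 0.30. The count was 6 without library 2, 2 without library 3 or 5 and 1 without the library as block. After thinning it was 1 of 17 tested. Of all genes, 6.19% were called higher. Ubd stood at 1.57, 4.25, 15.1, 10.4 and 11.3 in libraries 2 to 6 and at 0.110 or less in fibroblasts of each. Without the 15 cells its pooled level was 12.3, against 9.43 with them.

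Of 15 MHC class I genes, H2-Q6, H2-Q7 and Tap2 were higher, and none was lower, where 6.19% of all genes were called higher. The 3 became 1 without library 3, 5 or 6 and 2 without the cells with fibroblast genes. These H2-Q genes are near-identical copies, so reads may be split among them. H2-K1 stood at 24.8 ± 6.20 UMIs per 10000 against 25.2 ± 13.1, and B2m at 32.3 ± 5.88 against 33.5 ± 10.7. Of 6 tested MHC class II genes none passed, 1 difference was above 0 and the median was -0.11. Cd74, the invariant chain, was found at 4.05 in the pooled endothelial cells, 1.60 in fibroblasts, 33.1 in macrophages and 12.6 in malignant cells, and by library it ran from 0 to 8.57. After thinning to 1000 UMIs it was found in 22.7% of endothelial cells, 14.9% of fibroblasts and 75.7% of macrophages. Macrophage markers were also present at low level in the endothelial cells (Lyz2 at 0 to 4.23 by library, and in 37.0% of cells), and their part in the class II values was not tested. Of 6 tested checkpoint ligands, Tnfsf10 (TRAIL) was higher, at 0.782 ± 0.5002 against 0.00276 ± 0.00617, where 6.19% of all genes were called higher. Tnfsf10 is near 0 in fibroblasts and entered the test through its endothelial level. Cd274 (PD-L1) stood at 0.571 ± 0.186 against 0.750 ± 0.585 and did not pass.

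Genes tied to stress, growth and autophagy were counted in the same way. Of 17 immediate-early genes, which respond to tissue dissociation among other stimuli, none passed in either direction by limma, and the median difference was 0.08. Fos stood at 23.01, 17.2, 12.7, 1.69 and 10.8 UMIs per 10000 in libraries 2 to 6, and library 5 was far the lowest. Of 11 tested hypoxia genes, Bnip3 and Vegfa were lower and none was higher. The 2 calls became 0 without library 4 or without library 5, and 3 without the cells with fibroblast genes. Of 16 cell cycle genes, 4 were tested and none passed, and Mki67 was found in 5 of the 73 cells. Of 20 tested autophagy genes, Gabarapl2 was higher, Map1lc3a lower and the median difference was 0.01. This is near the share of all genes called (6.19% higher, 6.65% lower), and both calls were lost without library 5. Atg7 itself (chromosome 6, 114643097 to 114860614) was too scarce to read: 3 UMIs in 2 of the 73 cells, 1 cell each in deleted libraries 3 and 7, and none in the endothelial cells of the other libraries. Fibroblasts of wild-type hosts held 0.0596, 0.149, 0.213 and 0.0484 Atg7 UMIs per 10000 (libraries 1, 2, 5, 6). Those of deleted hosts held 0.0552, 0.0657, 0.0167 and 0.0532 (libraries 3, 4, 7, 8), which overlaps the first group. Reads may lie outside the removed part of the gene, so these values do not check the deletion.

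Genes of vessel type varied among the cells. Whole lists barely sorted them, since 69 of the 73 cells had at least 2 of 14 capillary genes, 68 at least 2 of 19 tip and tumor-angiogenic genes, 59 at least 2 of 11 venous genes and 51 at least 2 of 14 arterial genes. Single genes of capillaries and venules did so more clearly, while arterial and tip genes often shared cells with the capillary gene Gpihbp1 (below). The genes in this paragraph and in the next were chosen after their pooled values were seen. Gpihbp1, of capillaries, was found in 38 cells, and Selp, the P-selectin of venules that slows leukocytes, in 19. Both were found together in 4 cells. Ackr1, the chemokine receptor of venules, was found in 14 cells, 11 of which had Selp and 1 of which had Gpihbp1. Cd300lg, of capillaries and venules, was found in 35 cells, 26 of which had Gpihbp1. Lrg1, of inflamed venules, was found in 37 cells, 16 of which were among the 19 with Selp. A UMI of Selp or Ackr1 was present in 0 of 5, 3 of 24, 9 of 18, 4 of 12 and 3 of 10 cells of libraries 2 to 6. Median depth was similar, 7351 UMIs for cells with Gpihbp1 and 8085 for cells with Selp. After thinning, Selp was found in 18.2% of endothelial cells and 0.214% of fibroblasts.

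The arterial genes Sema3g, Gja5 (connexin 40) and Stmn2 were found in 12, 7 and 7 cells, and 6 of the 7 cells with Gja5 had Sema3g. Any of the 3 was present in 15 cells, 9 of them in library 3. Of these 15 cells, 10 also had Gpihbp1. Esm1 and Angpt2, of sprouting tip cells, were found in 10 and 16 cells and together in 7, and these cells were deep, with medians of 17445 and 12355 UMIs. Esm1 or Angpt2 was present in 19 cells, 14 of which also had Gpihbp1. Depth was not evened out in these counts of tip genes. Only 2 cells, 1 each in libraries 2 and 3, held Prox1, the lymphatic master regulator, and the same 2 cells held Lyve1. Exactly 1 of 3 sets (Gpihbp1, Selp or Ackr1, and the 3 arterial genes) was present in 44 of the 73 cells. In 14 cells none of Gpihbp1, Selp, Ackr1, Sema3g, Gja5 and Stmn2 was found, and their median was 2067 UMIs. Plvap was found in 46 cells, 18 of the 19 cells with Selp and 23 of the 38 with Gpihbp1 among them. Ubd was found in 33 cells and Cxcl9 in 42, with 28 cells holding both. These counts are over cells that share libraries, and they carry no test.

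Library 3 stood apart for 2 of the 14 listed capillary genes, Aqp7 and Timp4, which were singled out after the values were seen. Aqp7, the glycerol channel of fat and muscle capillaries, was found in 11 of its 24 endothelial cells, and Timp4, a metalloproteinase inhibitor of the same tissues, in 10, with 9 cells holding both. Neither gene had a UMI in the 49 endothelial cells of the other libraries. The level of Aqp7 was 2.998 UMIs per 10000 in library 3. In the 15 cells with fibroblast genes, 12 of which were from library 3, Aqp7 stood at 2.03, against 0.198 in the other 58 cells, and Timp4 at 2.68 against 0.339. In the model of endothelial against fibroblast cells neither gene passed (adjusted p = 0.248 and 0.249 by limma). The 14 capillary genes together summed to 236 UMIs per 10000 in library 3, against 52.7, 35.5, 31.1 and 154 in libraries 2, 4, 5 and 6. This sum includes Fabp4 and Cd36, which were higher in library 6 too than in libraries 2, 4 and 5. The capillary genes Gpihbp1 and Cd300lg were found in each of libraries 2 to 6. Fibroblasts were 746 of the 3948 cells of library 3 and 334 of the 964 of library 7.

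**Figure D5:**
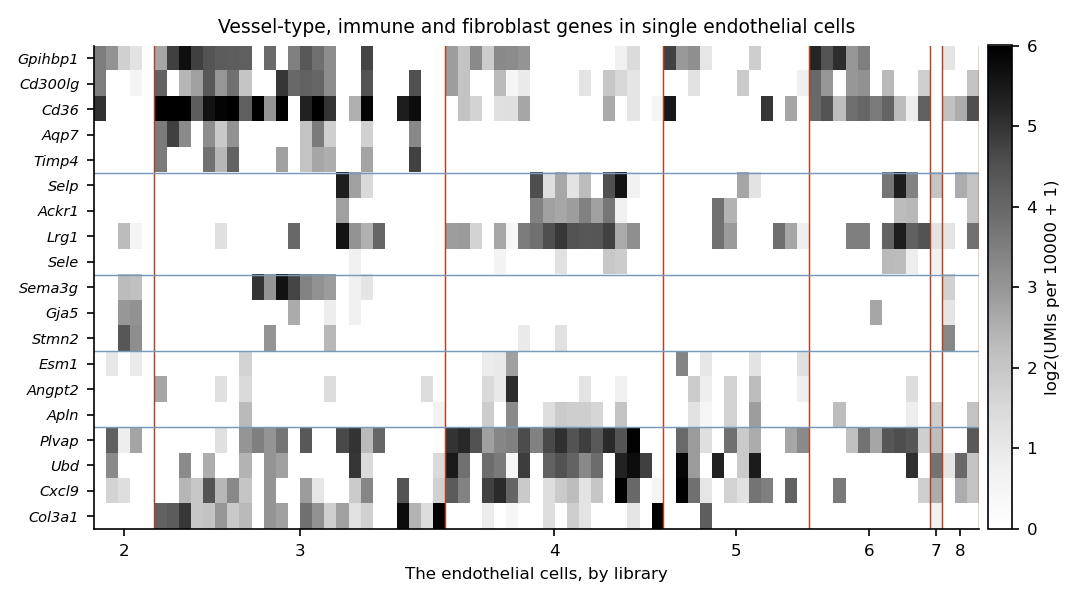
Values of 19 genes (rows) in each of the 73 endothelial cells (columns, grouped by library and then by vessel genes), as log2(UMIs per 10000 + 1), from white at 0 to black at 6 or more. Rows are, from the top, capillary, venous, arterial and tip genes, and then Plvap, Ubd, Cxcl9 and Col3a1. Aqp7 and Timp4 are filled in library 3 only, and Selp and Ackr1 fill mostly other columns than Gpihbp1.

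Endothelial genes were compared between hosts in libraries 3 and 4 (deleted) and 2, 5 and 6 (wild type). Of 6903 genes tested by limma, 0 were higher and 0 lower at an adjusted p under 0.05 (0.0% and 0.0%), and 356 genes had an unadjusted p under 0.05, which is 5.16%. The smallest adjusted p was 0.0803, for Gm42418, a locus that overlaps ribosomal RNA. Libraries 3 and 4 (deleted) held 757.7 and 1963 of its UMIs per 10000, and libraries 2, 5 and 6 (wild type) held 493.3, 179.5 and 110.4. The 3 libraries of the set 1 to 4 were the highest. C3, a complement gene, stood at 14.6 and 6.43 in the deleted libraries and at 0 in all 3 wild-type libraries, and Cfb, of the same pathway, at 1.87 and 1.79 against 0. Neither passed, with adjusted p of 0.679 and 0.762 by limma. The pooled level of C3 was 0.310 in the 58 cells with fewer than 3 of the fibroblast genes, against 17.3 in the other 15. Fibroblasts of deleted libraries 3 and 4 held 62.3 and 20.5 C3 UMIs per 10000, and the pooled fibroblast markers of the endothelial cells summed to 85.8 and 107 there, against 0.787, 31.6 and 0 in libraries 2, 5 and 6. Of the cells with fibroblast genes, 12 were in library 3 but 1 each in libraries 4 and 5, so single cells weigh on those sums. The part of fibroblast RNA in the C3 values was not tested. Col1a1 and Mmp2, both fibroblast genes, had the same direction. In a fit without the 15 cells with fibroblast genes, chosen after seeing the data, Col1a1 was called higher in the deleted libraries. Both deleted libraries belong to the set 1 to 4, while 2 of the 3 wild-type libraries belong to the set 5 to 8, so genotype and set are largely confounded. With the set as a term the comparison rests on library 2 alone against libraries 3 and 4, with the lone library assumed to vary like the others. Limma then called 0 higher and 0 lower (165 and 662 at an unadjusted p under 0.05), a count from which stability cannot be read. For the difference of the endothelial minus fibroblast values between hosts, 0 of 8226 genes passed (smallest adjusted p = 0.229 by limma, 454 at an unadjusted p under 0.05).

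Across the lists of endothelial genes and pathways, the deleted minus wild-type medians stood between -0.15 for the 24 pan-endothelial genes and 0.39 for the 11 tested interstitial matrix genes, against 0.00 for all 6903 genes. The MHC class II list stood at 0.33, the capillary list at 0.30, the MHC class I list at 0.23 and the interferon list at 0.22. Above 0 were 6 of 6 MHC class II, 9 of 14 capillary and 13 of 15 MHC class I genes. In the interferon list 14 of 22 genes were above 0, and its members ran from -0.87 to 1.14. One member, Gbp7, a guanylate-binding protein, stood at 4.00 and 2.40 UMIs per 10000 in deleted libraries 3 and 4. It stood at 1.97, 0.605 and 0.830 in wild-type libraries 2, 5 and 6 (adjusted p = 0.859 by limma). The autophagy list stood at 0.00 over 18 genes.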

How the data were processed

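Droplet libraries of 8 tumors were made with a 10x Genomics kit, per the labels' protocols, with Cell Ranger 2.1, Seurat 3.0 and mm10 listed in the submitters' processing notes. The values deposited by the authors are on a natural log scale, ln(1 + 10000 x UMIs / UMIs of the cell), a unit read from the values. Whole UMIs were recovered from them within 0.01 UMI for 100% of values. No count model was used. The members, gene lists and comparisons were chosen with earlier results of these data known.

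Cells with no cut on depth beyond the authors' own (498 UMIs or more) were classed by the rules given in the report. Pooled levels are the sum of UMIs over cells, per 10000. For the tests, deposited values were put on the log2 scale and averaged per class and library, and the means entered limma 3.58.1 in R 4.3.3 (trended prior variance, Benjamini-Hochberg adjustment), with the library as block for endothelial against fibroblast cells and in libraries with at least 5 cells. Library numbers are unique in the labels, and the block pairs 2 classes of the same library. The fit was run on simulated counts with known differences. Those counts were not gated on expressed genes, so they do not check the calls between the gated classes. Named genes were the genes of the rules, the listed genes, the 15 highest and 10 lowest called differences with 1 sign in every library, and the 15 highest levels relative to other cells. Genes Gm*, *Rik, mt-* and ribosomal ones were left out of these ranks. Shares were compared by exact permutation, with exact (Clopper-Pearson) 95% intervals. The limit for a count of 0 is 3 counts. Coordinates are from GENCODE M21 (mm10), which matched 98.8% of 19024 symbols. Promoters are from RefSeq.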

Additional observations from a re-analysis of the deposited data

How the results depend on the processing

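The difference in endothelial share between hosts, 0.243 percentage points, stayed short of significance in all settings tried. It stayed above 0 in all but 1, which turned it to -0.0573 (Cd3e, Lyz2, Krt8, Epcam and Col3a1 also at 0). The largest difference, 0.573, came with at least 2 of the 8 endothelial genes required (exact permutation p = 0.114). Leaving out 1 library at a time gave 0.124 to 0.348. The counts of genes higher and lower than in fibroblasts, 509 and 547, fell to 129 and 171 after thinning to 1000 UMIs, where 1865 genes could be tested, and to 64 and 104 with no filter on low genes, where 16297 were tested. Without 1 library at a time they were 328 to 459 and 358 to 520. Without the replicate block they were 401 and 497. Of the genes called, 129 of 129 higher and 159 of 171 lower after thinning, and 64 of 64 and 98 of 104 with no filter, were among the 509 and 547. With no filter, 9 of 24 pan-endothelial genes, 4 of 22 transcription factors and 2 of 15 caveolar and lipid genes were higher, and 9 of 17 interstitial matrix genes lower. The 25 leading genes kept their call in 338 of 350 alternative values, and the 12 lost calls came with no filter. All 350 kept their sign, which says little, since the genes were chosen for 1 sign in every library. Leaving out a library could thus not turn the sign, and the filter and block settings reuse the same differences.

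Between hosts, the 0 higher and 0 lower genes became 6 higher from summed UMIs (C3, C4b, Cfb, Meg3, Mmp2, Serping1) and 1 higher with a minimum of 3 cells (Gm42418). Further alternatives were chosen after seeing the data. Among them, the set as a term left 1 wild-type library to compare. Without the cells with fibroblast genes the counts were 2 higher (Col1a1, Gm42418) and 4 lower. With thinning they were 1 higher (Gm42418) and 2 lower. Without 1 library at a time they were 0 to 2 higher and 0 to 6 lower, the highest counts being without library 2. The lower genes included Gm10076 and mt-Atp8, which separate the 2 sets of libraries. The cause of the other changes was not tested. Depth limits all values, since 73 cells give 555923 UMIs, and genes under about 0.05 UMIs per 10000 rest on 3 or fewer UMIs.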
